A study of Mus musculus with 2 samples.

Results

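The genes that write, maintain and remove DNA methylation were followed cell by cell in E11.5 mouse embryos. The 9 genes, chosen by symbol among 21937 gene features, were Dnmt1, Uhrf1, Dnmt3a, Dnmt3b, Tet1, Tet2, Tet3, Mbd3 and Trim28, and each symbol occurred once. All embryos carried an EGFP transgene under the CAG promoter, linked to a DNA barcode and inserted with the piggyBac transposon. For each founder suspension (F0_8 or F0_9), a fertilised C57BL/6J egg had received transposase mRNA by electroporation and the donor DNA by microinjection. Of the 2 F1 suspensions, F1_1 was 1 embryo, and F1_mix was an artificial mixture of cells of 2 F1 embryos, counted here as 1 sample. Every group was therefore transgenic, no embryo without the transgene was analysed, and embryo and generation cannot be told apart beyond the spread between 2 suspensions a group.

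Methylation of cytosine in CpG is copied to the new strand after DNA replication by Dnmt1, which Uhrf1 brings to hemimethylated sites. Dnmt3a and Dnmt3b add methyl groups to unmethylated DNA. Tet1, Tet2 and Tet3 oxidise 5-methylcytosine, which opens a route to unmethylated cytosine either through base excision or through dilution at replication. Mbd3 is a subunit of the NuRD chromatin remodelling and deacetylase complex, and Trim28 is the scaffold through which KRAB zinc finger proteins silence retroelements and keep imprints.

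The 5678 cells in the cell table of the study held 16052917 to 19160116 gene UMIs (unique molecular identifiers, counts of captured transcripts) per suspension, and no barcode was shared between suspensions. Of 16 annotated cell types, 12 were deep (4309 cells) and 4 were shallow, with a median depth of 721.5 to 1674 UMIs. Deep means a median of at least the median of all cells divided by 3. The own marker set was the highest among deep types in 8 of the 12 deep types and in 0 of the 4 shallow ones. The cells labelled Neuroectoderm/Glia went against their label. Their summed Sox2, Fabp7, Pax6 and Nes level was 99.3 CPM (UMIs per 1000000 gene UMIs, here outside mitochondrial genes) against 2365 in Neuronal Progenitor, and their level of the neuron markers Tubb3, Stmn2, Elavl3 and Snap25 was 7056 against 5372 in CNS Neuron. Chondrocyte and Erythroblast sets were higher in Gut Mesenchyme/Amniotic Mesoderm and in Erythrocyte, and cells labelled Hematoendothelial Progenitor/Endothelium also held macrophage markers at 2423 CPM. The authors' names are used below as labels.

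A level is the CPM of a gene in counts summed over cells, with all gene UMIs as the denominator unless stated. In Erythrocyte, the globin genes Hba-a1, Hbb-bs, Hbb-y and Hba-x had 600374 CPM outside mitochondrial genes, against 68167 in Erythroblast. This lowers the level of every other gene in Erythrocyte, and its detection at a given depth. How far it sets the low levels there was not tested. Since 3′ UMIs do not scale with transcript length, levels of different genes may be set side by side only as UMIs. Because the cell types had been defined by clustering on variable genes of the same cells, differences between them are descriptions with the range over the 4 suspensions, and intervals are exact Poisson 95% intervals that cover counting error only. Orders of cell types are given among the 12 deep types, and the shallow types are described at the end. Fewer cells of a kind and less RNA per cell cannot be told apart in sums over cell types.

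Over the deep types, Mbd3 (236.5) and Trim28 (203.9) had the highest levels, followed by Dnmt3a (101.8), Dnmt1 (99.3), Uhrf1 (85.1) and Tet3 (80.8). Tet2 (40.6) and Tet1 (31.4) were lower, and Dnmt3b was the lowest of the 9 at 10.2. This order is of pooled values and was not kept in every suspension. Uhrf1 lay below Tet3 in F0_8 (73.7 against 86.5) and F0_9 (71.9 against 79.1). Dnmt1 lay above Dnmt3a in F1_1 (95.4 against 92.3) and F1_mix (102.4 against 98.5). Dnmt3l, the catalytically inactive cofactor of de novo methylation in germ cells, had 8 UMIs in all deep cells. A UMI of Mbd3 was found in 92.3% of deep cells and one of Dnmt3b in 13.1%, at a median depth of 14161. At 5000 UMIs a cell, with 57 shallower cells left out, these shares were 66.7% and 4.56%. In Erythrocyte, where both genes were low, 25% and 0% of 60 cells had one at that depth, and 0 of 60 allows a share of up to 5% (limits of a zero are set here at 3 counts of the total, not at an exact interval).

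Among the deep types, Uhrf1 was highest in Neuronal Progenitor, Erythroblast and Myoblast/Cardiomyocyte, and Dnmt1 in Mesodermal Progenitor and Erythroblast. Uhrf1 lies at chr17:56303337-56323486 and Dnmt1 at chr9:20907206-20959888 (GRCm38.p6). In Neuronal Progenitor, Uhrf1 had 128.3 and 128.7 CPM in F0_8 and F0_9, and 152.1 and 153.7 in F1_1 and F1_mix. Erythroblast (138.6, range 124.9 to 158.4) and Myoblast/Cardiomyocyte (132.4, range 119.4 to 138.2) were next, and the ranges of these 3 types overlapped. The lowest level of a deep type was in cells labelled Neuroectoderm/Glia, with 4.30, 3.47, 11.1 and 9.48 in F0_8, F0_9, F1_1 and F1_mix, from 8, 6, 11 and 13 UMIs. CNS Neuron came just above with 14.2 to 19.5, and these 2 ranges did not overlap. Uhrf1 was thus low in both neuronal types in every suspension.

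Dnmt1 varied less between the deep types. Among them it was highest in Mesodermal Progenitor (154.8, range 144.8 to 188.2) and Erythroblast (143.4, range 120.6 to 155.7), which overlapped. In CNS Neuron it had 41.3, 43.0, 35.9 and 37.2 in the same order of suspensions, and in Neuroectoderm/Glia 57.0, 57.9, 34.3 and 53.2. The number of Uhrf1 UMIs per Dnmt1 UMI was 1.29 in Neuronal Progenitor (range 0.928 to 1.57), 0.423 in CNS Neuron (0.345 to 0.523) and 0.121 in Neuroectoderm/Glia (0.0600 to 0.324). Dnmt1 UMIs thus outnumbered those of Uhrf1 in both neuronal types of every suspension.

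The de novo enzymes had different patterns. Dnmt3a (chr12:3801559-3914443) was, among the deep types, highest in Gut Mesenchyme/Amniotic Mesoderm, with 185.0, 190.2, 164.8 and 167.7 in F0_8, F0_9, F1_1 and F1_mix, all above the range of the next deep type, Chondrocyte (115.0 to 147.5). It was 58.4 to 79.0 in CNS Neuron and far lower in Erythroblast (12.5, interval 9.37 to 16.3) and Erythrocyte (1.29, from 2 UMIs). Dnmt3b (chr2:153649411-153687730) lay between 4.42 in CNS Neuron and 20.4 in Hematoendothelial Progenitor/Endothelium in the deep types other than Erythrocyte. That highest value rested on 29 UMIs, with a range of 6.02 to 32.5 that overlapped all deep types but CNS Neuron and Erythrocyte. In Erythrocyte, Dnmt3b had 0 of 1551731 gene UMIs, which allows a level of up to 1.93 CPM (3 counts). Among deep types, in Erythroblast alone the UMIs of Dnmt3a and Dnmt3b were about equal, at 54 and 53, while the ratio of Dnmt3a to Dnmt3b was 4.28 to 20.4 in the 10 other deep types with Dnmt3b UMIs.

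Among the deep types, all 3 Tet genes had their lowest pooled levels in the red blood cell types, and Tet2 and Tet3 had their highest in CNS Neuron. Tet1 (chr10:62804570-62887469) had between 26.7 and 45.5 CPM in the 9 deep types outside blood and endothelium, but 5.63 (interval 2.43 to 11.1) in Hematoendothelial Progenitor/Endothelium, 1.85 (0.798 to 3.64) in Erythroblast and 0 UMIs in Erythrocyte. Tet2 (chr3:133463677-133545136) was highest of the deep types in CNS Neuron, with 82.5, 79.9, 62.6 and 80.7 in F0_8, F0_9, F1_1 and F1_mix. Tet3 (chr6:83362373-83457208) was highest there too, with 152.2, 139.8, 107.7 and 134.5, followed by Neuroectoderm/Glia with 111.1 to 133.3, and these ranges overlapped. In Hematoendothelial Progenitor/Endothelium, Tet2 (51.4) and Tet3 (90.8) stayed within the range of the other deep types outside red blood cells while Tet1 rested on 8 UMIs. Among the 10 deep types outside red blood cells, CNS Neuron thus had the lowest pooled level of Dnmt1, the second lowest of Uhrf1 and the highest of Tet2 and Tet3.

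Mbd3 (chr10:80392539-80399531) and Trim28 (chr7:13024152-13031032) were found in every deep type. Among the deep types outside red blood cells, Mbd3 ranged from 165.5 in Hematoendothelial Progenitor/Endothelium to 293.2 in Myoblast/Cardiomyocyte, and Trim28 from 116.2 to 269.1 in the same 2 types. Erythrocyte, where globin took most UMIs, was the lowest deep type for both, at 43.8 and 18.04. In Erythroblast, F0_8, F0_9, F1_1 and F1_mix had 92.3, 75.6, 241.2 and 162.2 for Trim28 and 125.1, 113.1, 241.2 and 188.0 for Mbd3. The founders were lower for both, but F1_1 held only 7 of these cells and the type was not tested.

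**Figure D1:**
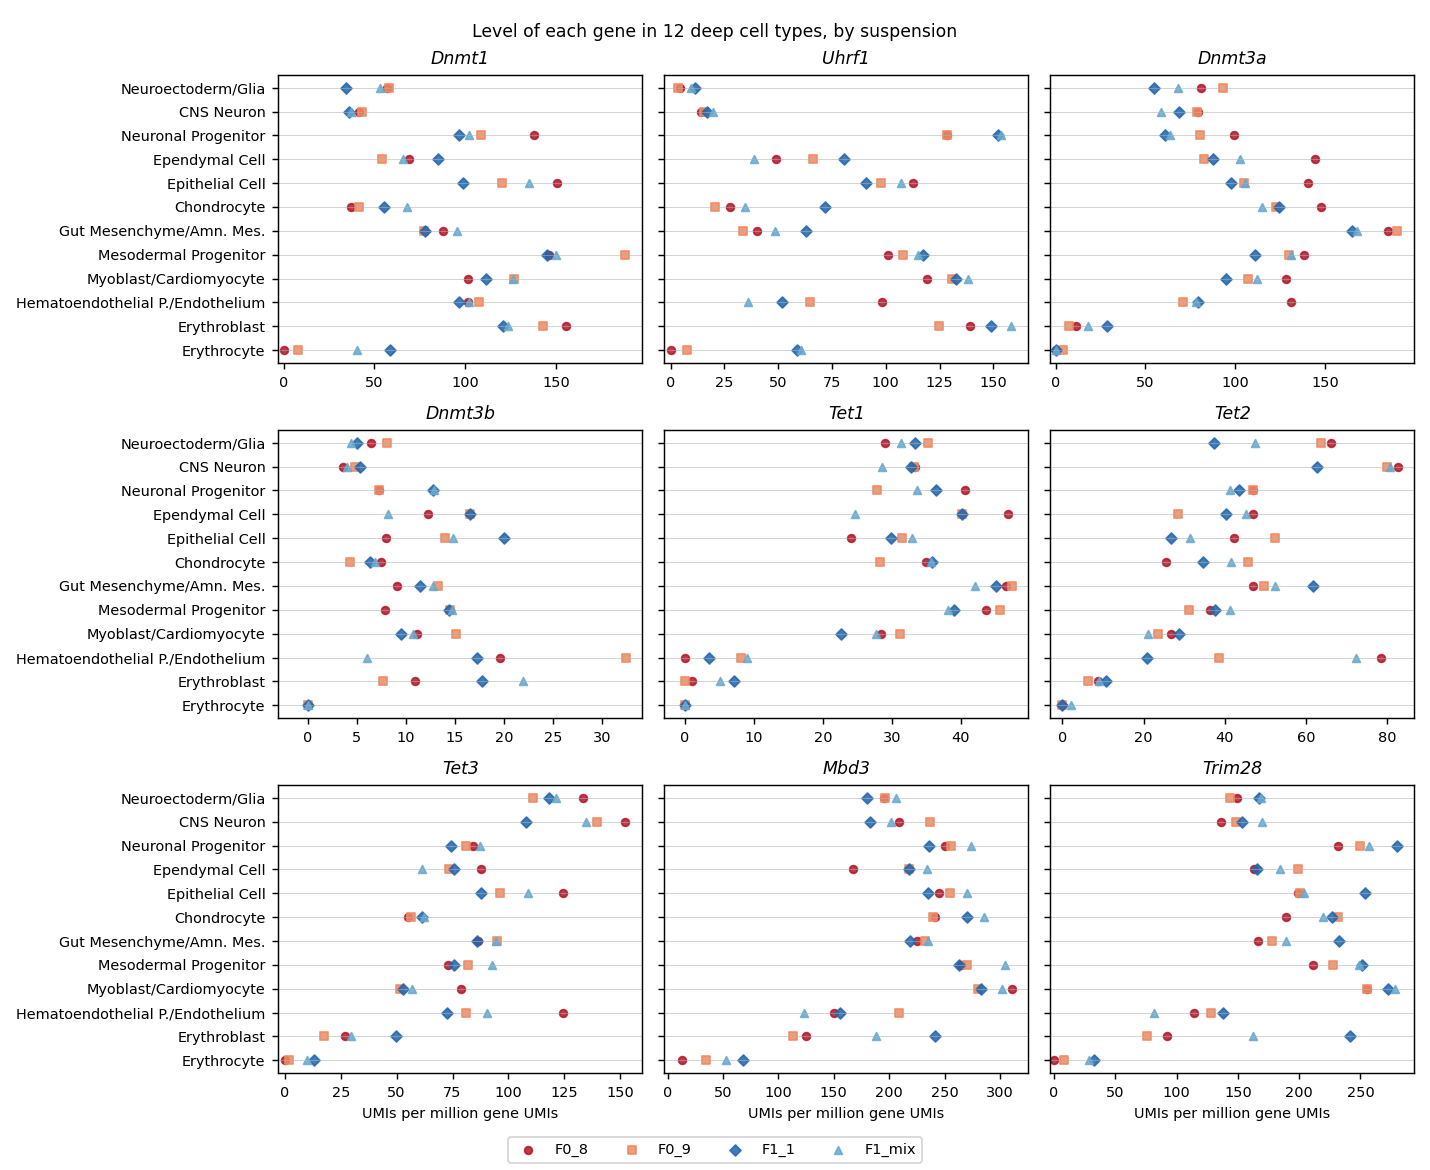
Level of the 9 genes in each deep cell type, in CPM on linear axes that differ between panels. Each point is 1 of the 4 suspensions. Uhrf1 was at 3.47 to 19.5 in CNS Neuron and Neuroectoderm/Glia, the deep types with the highest pooled Tet2 and Tet3, and Tet1 was at 9.03 or lower in the 3 types of blood and endothelium.

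Across the 12 deep types, the levels of Mbd3 and Trim28 ran most closely together (Pearson r of log2(level + 1) = 0.99, and 0.97 over the 10 types without red blood cells). Uhrf1 and Dnmt1 had r = 0.79 and 0.85 on the same 2 sets. Tet2 and Tet3 had r = 0.98 and 0.82, while Uhrf1 and Tet2 had r = -0.12 over 12 types and -0.66 over 10. The summed level of 12 DNA replication genes (Mcm helicase subunits, nucleotide synthesis and licensing factors) had r = 0.99 with Uhrf1, 0.80 with Dnmt1 and 0.54 with Dnmt3b over the 12 types. These values describe cell types of 1 library that share their depth differences, and red blood cells set part of them.

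The genes with the most similar profiles across the 12 types were named by the same r. For Uhrf1, the genes with the highest r were Clspn, a replication checkpoint adaptor (0.99), Cenpm, a centromere protein (0.98), and Kntc1, a kinetochore protein (0.97). For Dnmt1 they were Atad5, which unloads PCNA, Nup155, a nuclear pore protein, and Prim2, a primase subunit (all 0.96). For Tet2 and Tet3, Ccdc50 was shared (both 0.99), beside St7l and 2410131K14Rik for Tet2 and Fbxw11 and Nlk for Tet3. Tet1 was nearest to Efna5, Tulp3 and Zfp354c, Dnmt3a to Nisch, Ctps2 and Nck1, and Dnmt3b to Mios, Gatad2a and Mfsd14b. Mbd3 was nearest to Hmgn1, Trim28 and Nae1, and Trim28 to Tubgcp2, Mbd3 and Mettl2. With rank correlation, none of these 3 nearest genes was kept for 8 of the 9, and 2 were kept for Mbd3.

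Deep cells were then split at the median level of the 12 replication genes, 8.03 UMIs per 10000, after the profiles above had been seen. Of the 4309 cells, 275 lay within 10% of that value, and the median depth was 16765 above and 12047 below it. Uhrf1 had 125.1, 125.1, 131.4 and 133.0 CPM in the high cells of F0_8, F0_9, F1_1 and F1_mix, and 22.7, 18.2, 32.1 and 24.7 in the low cells. All high values exceeded all low values, by a factor of 4.09 to 6.88 within a suspension. Dnmt1 was higher in high cells by a factor of 2.41 to 3.11. Trim28 (1.32 to 1.5) and Mbd3 (1.10 to 1.26) differed less, and the ratio of Dnmt3a lay on both sides of 1 (0.904 to 1.11). Dnmt3b (1.004 to 1.39) was also higher in the high cells of every suspension, narrowly in F1_1 (11.09 against 11.05 CPM). Tet1 (0.744 to 0.912), Tet2 (0.540 to 0.712) and Tet3 (0.632 to 0.725) were lower in the high cells of every suspension. Over the 8 deep types tested below that had cells in both classes, the pooled ratio of Tet2 ran from 0.363 in Chondrocyte to 1.37 in Mesodermal Progenitor and that of Tet3 from 0.697 in Epithelial Cell to 1.07 in Mesodermal Progenitor, so that both lay on either side of 1. Outside CNS Neuron, which had 15 high cells, that of Dnmt3b ran from 0.468 in Chondrocyte to 1.58 in Neuronal Progenitor. That of Tet1 ran from 0.669 in Epithelial Cell to 1.17 in Ependymal Cell, and that of Mbd3 from 0.967 in Myoblast/Cardiomyocyte to 1.33 in Chondrocyte. These too lay on either side of 1. Within a type, the ratio of Uhrf1 over the pooled suspensions was 1.97 in Mesodermal Progenitor, 2.82 in Neuronal Progenitor and 3.57 in Gut Mesenchyme/Amniotic Mesoderm. The high class held 80.4% of Neuronal Progenitor, 2.82% of CNS Neuron and 0 of the 502 Neuroectoderm/Glia cells, which allows a share of up to 0.598% (3 cells of the total). Nearly all cells of the 2 neuronal types, where Tet2 and Tet3 were highest among the deep types, were thus in the low class.

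**Figure D2:**
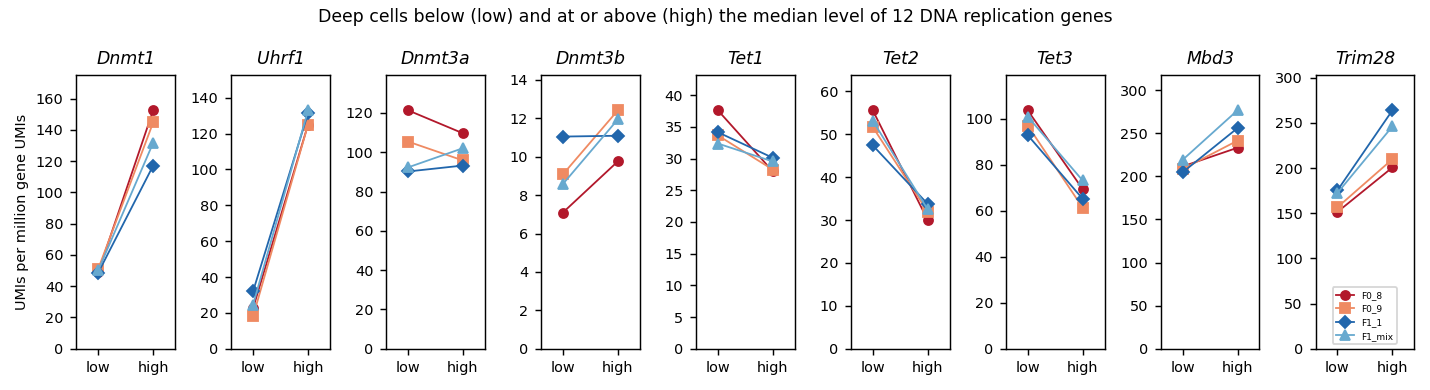
Level of the 9 genes, in CPM, in deep cells below (low) and at or above (high) the median level of 12 DNA replication genes. Each line joins the 2 values of 1 suspension, and axes start at 0. Uhrf1, Dnmt1, Trim28, Mbd3 and, narrowly in F1_1, Dnmt3b were higher in the high class of all 4 suspensions, and the 3 Tet genes lower. The pooled ratios of Mbd3, Dnmt3b and the 3 Tet genes within cell types lay on both sides of 1, however, and nearly all neurons were in the low class.

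The next question was whether the genes differed between the founder and the F1 suspensions. Over the deep types summed, Uhrf1 and Trim28 were lower in founders, and the other 7 genes did not pass the test (edgeR quasi-likelihood, Benjamini-Hochberg adjusted p under 0.05 over 14403 genes). Across all genes 8.98% were called in either direction, 3.99% as lower and 4.99% as higher in founders, so 2 called members of 9 stand beside many called genes. Uhrf1 had 73.7 and 71.9 CPM in F0_8 and F0_9 against 99.97 and 94.2 in F1_1 and F1_mix, a log2 fold change of -0.43 (SE 0.05, adjusted p = 0.013). The groups did not overlap. Trim28 had 176.0 and 183.3 in founders against 235.8 and 219.7, a log2 fold change of -0.35 (SE 0.05, adjusted p = 0.019), also without overlap. Uhrf1 also passed the test with each suspension left out in turn (log2 fold change -0.47 to -0.38). Trim28 did not pass without F0_8 (log2 fold change -0.31, adjusted p = 0.060) or without F1_1 (-0.30, adjusted p = 0.074).

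For the remaining genes the values were closer. Mbd3 had 222.4 and 225.1 in founders and 239.8 and 256.1 in F1 (log2 fold change -0.16, adjusted p = 0.084). Dnmt3a had 115.5 and 100.6 against 92.3 and 98.5 (0.17, adjusted p = 0.18). With 1 suspension left out, its log2 fold change ran from 0.08 without F0_8 to 0.24 without F0_9. Dnmt1 had 100.5 and 98.1 against 95.4 and 102.4, a log2 fold change of -0.01 (SE 0.05, adjusted p = 0.95), with overlap. Without the red blood cell types, Dnmt1 had a log2 fold change of -0.10 (adjusted p = 0.23), also with overlap. Whether Dnmt1 and its partner Uhrf1 differed from each other in this was not tested. Tet2 had 42.8 and 41.8 in founders and 38.1 and 39.9 in F1. Both founders thus lay below both F1 suspensions for 3 of the 9 genes (Uhrf1, Trim28 and Mbd3) and above both for 2 (Dnmt3a and Tet2), orders that 27.6% and 29.5% of all genes had. Tet1, Tet2, Tet3 and Dnmt3b had log2 fold changes of 0.03, 0.11, 0.06 and -0.20, and their lowest adjusted p was 0.37. Single suspensions moved them: that of Dnmt3b was -0.02 without F0_8 and -0.40 without F0_9. That of Tet3 was -0.01 without F1_1 and 0.15 without F1_mix.

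**Figure D3:**
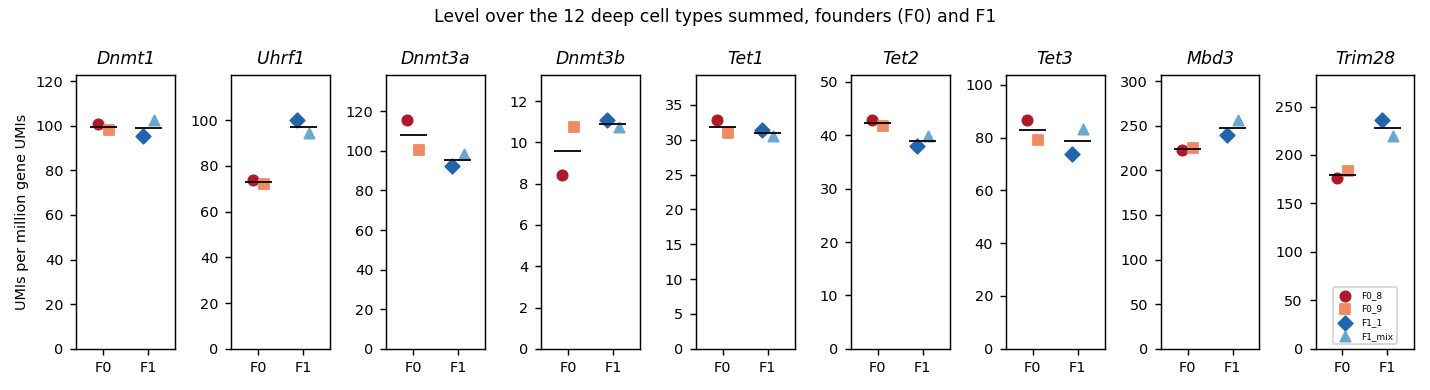
Level of the 9 genes over the 12 deep cell types summed, in CPM with axes from 0. Points are the suspensions, and the bars are the means of the 2 founders (F0) and of the 2 F1 suspensions. The founders lay below F1 without overlap for Uhrf1, Mbd3 and Trim28, and above F1 without overlap for Dnmt3a and Tet2, where only Uhrf1 and Trim28 passed the test.

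The cell types made up different shares of the deep cells in the 2 generations. Myoblast/Cardiomyocyte, high in both called genes, made up 8.41% and 10.8% of founder cells and 22.2% and 19.6% of F1 cells. Neuroectoderm/Glia, low in Uhrf1, made up 13.9% and 14.2% against 8.35% and 9.64%, and Erythroblast 5.44% and 4.88% against 0.740% and 1.88%. With equal weight for each of the 12 types, Uhrf1 had 69.5 and 66.9 in founders and 83.0 and 76.7 in F1, and its log2 difference was -0.23. Trim28 had 159.1 and 170.4 against 201.2 and 182.7, a log2 difference of -0.22. The direction was kept and the groups did not overlap, with an exact two-sided permutation p of 0.333 for each, the smallest that 2 against 2 samples allow. Without both red blood cell types, the equal-weight differences were -0.12 and -0.13. In the sum over cells without these types, they were -0.56 (adjusted p = 0.0091) and -0.31 (adjusted p = 0.027).

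Replication genes moved with the same comparison. The share of deep cells in the high replication class was 41.9% and 41.8% in F0_8 and F0_9 against 61.7% and 56.4% in F1_1 and F1_mix. Within the high class, Uhrf1 had 125.1 and 125.1 in founders against 131.4 and 133.0, and within the low class 22.7 and 18.2 against 32.1 and 24.7, without overlap in either. Trim28 had 200.7 and 209.8 against 263.9 and 246.1 in the high class and 151.5 and 156.6 against 175.4 and 172.5 in the low class, so its founders lay below F1 in both. How many of all genes had this order within the classes was not counted, and over the deep types summed 27.6% had it. The classes were made after seeing the data, and each held several cell types. The part of cell type shares and of replication in the summed differences was not tested.

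Within single cell types, 93 of 117 pairs of a member and a tested type passed the filter on low counts (13 types that held at least 20 cells of every suspension). The edgeR test called 0 of the 93, while 0.752% of all gene and type pairs were called, and 14 of the 93 had an unadjusted p under 0.05, as did 10.2% of all gene and type pairs. DESeq2 also called 0. The 24 pairs that did not pass the filter were 19 in shallow types and 5 of Dnmt3b in deep types. The fitted difference of Uhrf1 was negative in 10 of 11 types and that of Trim28 in 11 of 12. Among the 9 deep types tested, both founders were below both F1 suspensions in 7 for Uhrf1 and in 7 for Trim28, where 19.1% of all gene and type pairs had that order. The largest Uhrf1 differences were in Neuroectoderm/Glia (log2 fold change -1.37, SE 0.43, adjusted p = 0.20, on 6 to 13 UMIs a suspension) and Chondrocyte (-1.12, SE 0.34, adjusted p = 0.17). In Chondrocyte, Uhrf1 had 27.6 and 20.7 in founders and 71.7 and 34.5 in F1. Without F1_mix, the pair was called (-1.57), as were Uhrf1 and Trim28 in Gut Mesenchyme/Amniotic Mesoderm (-0.79 and -0.46). With no filter on counts, Uhrf1 and Trim28 in Gut Mesenchyme/Amniotic Mesoderm and Tet2 in Neuroectoderm/Glia were called.

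Dnmt3a went the other way. Its fitted difference was positive in 12 of 12 types, and both founders exceeded both F1 suspensions in 4 of the 9 deep types, where 21.5% of all pairs had that order. The types share the same 4 suspensions, so these counts are not independent. Without F0_8, the log2 fold change over the deep types summed fell from 0.17 to 0.08. How many of all genes kept the same sign in every type was not counted. In Neuronal Progenitor, Dnmt3a had 99.1 and 80.2 in founders and 61.1 and 63.4 in F1 (log2 fold change 0.49, SE 0.14, adjusted p = 0.17). In Neuroectoderm/Glia, it had 80.6 and 93.2 against 54.5 and 67.8 (0.48, adjusted p = 0.23). No difference of Dnmt3a passed the test. Dnmt3b in Neuronal Progenitor had 7.30 and 7.24 against 12.7 and 12.8 (log2 fold change -0.85, adjusted p = 0.28), on 13 to 32 UMIs a suspension.

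**Figure D4:**
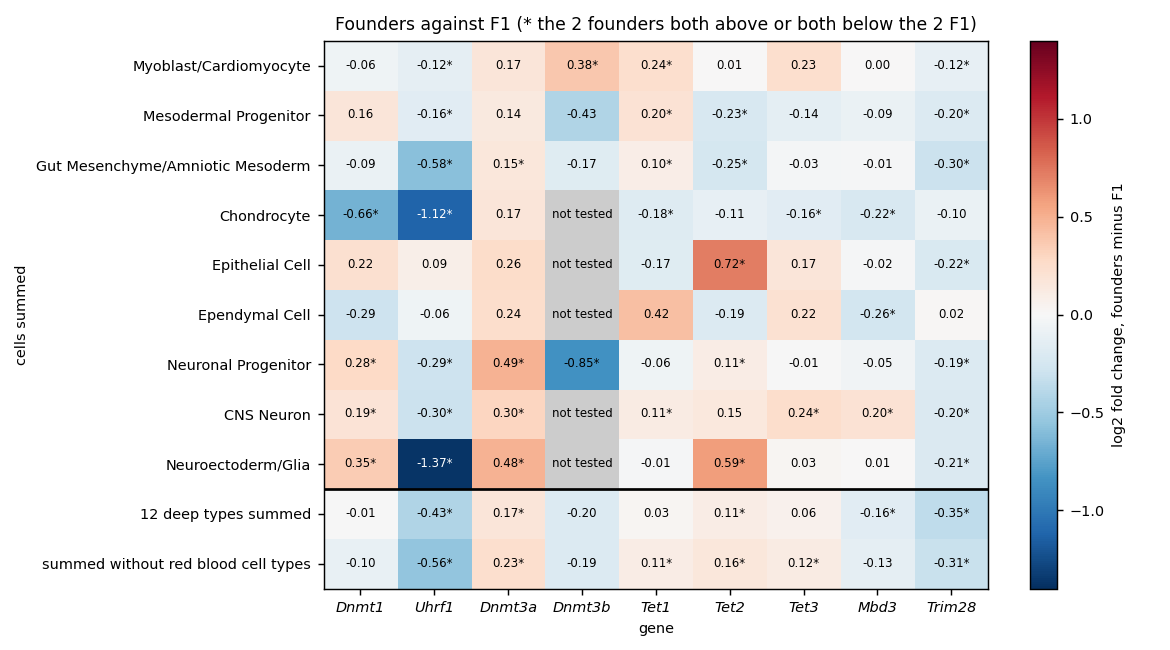
Log2 fold change of founders minus F1 for the 9 genes in the 9 deep cell types tested and in the deep types summed. A star marks values whose 2 founders lay both above or both below the 2 F1 suspensions, and grey marks genes that did not pass the filter on low counts. Uhrf1 and Trim28 were starred and lower in 7 of the 9 types each, and the types share the same suspensions.

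Uhrf1 and Trim28, the called pair, are shown with the sequence before their annotated starts (RefSeq, GRCm38.p6), where an E2F-type motif was searched. E2F factors drive genes of the S phase. The motif was spelled as TTTCCCGC, TTTGGCGC, TTTCGCGC, TTTGCCGC or TTCCCGCC on both strands, where the first and the last overlap, and was chosen after the sequences had been seen. Capitals mark the match, TTCCCGCC in Uhrf1, 48 bases before the start, and its reverse complement in Trim28, 179 bases before. Uhrf1 has 2 annotated starts, of which the first is shown. The window of the second, with 33 CpG sites, holds TTTCGCGC 185 bases before its start.
Uhrf1, chr17:56303087-56303336, plus strand: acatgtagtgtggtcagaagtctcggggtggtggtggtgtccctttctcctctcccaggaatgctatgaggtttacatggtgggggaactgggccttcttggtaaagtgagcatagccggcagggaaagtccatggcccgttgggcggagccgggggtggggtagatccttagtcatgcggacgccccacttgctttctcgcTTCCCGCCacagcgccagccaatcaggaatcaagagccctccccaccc
Trim28, chr7:13023902-13024151, plus strand: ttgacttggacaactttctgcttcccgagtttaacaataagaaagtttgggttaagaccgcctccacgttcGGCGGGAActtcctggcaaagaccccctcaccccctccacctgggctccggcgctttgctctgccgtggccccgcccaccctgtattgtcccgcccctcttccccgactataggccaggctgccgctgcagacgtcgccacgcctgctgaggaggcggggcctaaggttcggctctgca
Over windows of 300 bases (250 before to 50 after the start), 4 of 14 promoters of 3 of the 9 genes held a match, the third being Dnmt1. Dnmt1, which overlapped between founders and F1, held TTTGGCGC and TTTCGCGC in the same promoter. Of all 32851 promoters, which were not matched for CpG content, 3.89% held one, and TTCCCGCC alone was in 2.19%. Since the spellings were chosen after the members' sequences had been seen, the shares are not to be compared. A match is a description of letters and not of binding. By CpG content, Tet2 had 57 CpG sites in its window and one Dnmt1 promoter had 2, with a ratio of observed to expected CpG of 1.17 and 0.101, against a median of 0.384 over all promoters.

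Other genes of the pathway, and genes of DNA replication and mitosis, were described by lists chosen with earlier results of these data known. Of 91 genes in 9 lists, 81 were tested, 18 were lower in founders and 4 were higher, beside 3.99% lower and 4.99% higher over all 14403 genes. Of the 18, 8 were on the DNA replication list and 1 on the mitosis list. The median log2 fold change was -0.10 against 0.00 over all genes. Because of how the lists were chosen, these counts are descriptions only. The 22 called genes became 3 without F0_8, 14 without F0_9, 2 without F1_1 and 10 without F1_mix, while the calls over all genes went from 1294 to 433, 989, 229 and 748. These shares of all genes are the background of each list count that follows.

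Of 8 tested partners of maintenance and de novo writing, 3 were lower in founders and none was higher. They were Hells, the remodeller that DNA methylation of repeats requires (log2 fold change -0.37, adjusted p = 0.017), its activator Cdca7 (-0.32, adjusted p = 0.026), and Pcna, the replication clamp that binds Dnmt1 (-0.29, adjusted p = 0.022). Nsd1, a histone H3 lysine 36 methyltransferase, had the highest level of this list (219.2) and a log2 fold change of 0.06. Among 11 genes of oxidation and base excision, Apex1, the endonuclease for abasic sites, was lower (-0.47, adjusted p = 0.012), and Gadd45a, a stress-response gene linked to demethylation, was higher (0.44, adjusted p = 0.035). Of 8 genes of the list of methyl-CpG-binding domain proteins and other readers, only Mbd5 was called, as higher (0.18, adjusted p = 0.040), and Mbd5 carries the domain but is not known to bind methylated DNA.

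In the NuRD list of 12 genes, the deacetylase Hdac1 (-0.24), Mta2 (-0.32) and the histone chaperone Rbbp4 (-0.21) were lower in founders, and the remodellers Chd3 (0.32) and Chd5 (2.44) higher, with adjusted p from 0.025 to 0.045. Chd5 had only 51 UMIs. Chd4, the main remodeller, had the highest level (353.1) and overlapped between the groups (log2 fold change -0.03). Of 11 Trim28 partners, only Cbx1, a heterochromatin protein, was called (-0.20, adjusted p = 0.038), and Setdb1, the histone H3 lysine 9 methyltransferase that Trim28 recruits, had a log2 fold change of 0.03. Of 10 genes of methyl donor supply, Ahcy, which removes S-adenosylhomocysteine, was lower (-0.50, adjusted p = 0.036), and Mat2a, which makes the methyl donor, had the highest level (164.8) and a difference of -0.06.

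All 12 replication genes had a fitted level lower in founders, 8 of them called, with a list median of -0.24. Over all genes, 7186 of 14403 had a fitted level lower in founders. The 5 largest were Rrm2 (-0.50), Tyms (-0.38), Mcm5 (-0.35), Mcm7 (-0.33) and Gins2 (-0.32), with adjusted p from 0.011 to 0.031. Of 8 mitosis genes, Cdk1 was lower (-0.23, adjusted p = 0.029), while Ube2c, the highest (288.6), had -0.02. Germline genes that promoter methylation silences had 111 UMIs in all deep cells over 10 genes, 51 of them from Sycp3, the only one tested (0.13, adjusted p = 0.90). EGFP itself had 1151 and 1027 CPM over the deep types in F0_8 and F0_9 and 2510 and 1079 in F1_1 and F1_mix. EGFP thus stood apart in F1_1 alone, and its relation to the levels of Uhrf1 and Trim28 was not tested.

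In the 4 shallow types the 9 genes changed rank. Relative to the deep types, and outside mitochondrial genes, Tet3 was higher by a factor of 3.24 (range over suspensions 2.57 to 4.23), Dnmt3a by 3.07, Tet1 by 2.62 and Tet2 by 2.54. Mbd3 was lower, with a ratio of 0.363 (0.290 to 0.472), and Trim28 had 0.887. Dnmt3b (1.77), Dnmt1 (1.26) and Uhrf1 (1.21) lay between. The 4 genes with the highest ratios are 81.5 to 112.9 kb long, Dnmt1, Dnmt3b and Uhrf1 52.7, 38.3 and 20.2 kb, and Mbd3 and Trim28 6.99 and 6.88 kb. The order by length was not exact, since Tet3 lay above the longer Dnmt3a, Dnmt3b above the longer Dnmt1 and Trim28 well above Mbd3 of nearly the same length. Over all genes with 500 or more UMIs, the median ratio was 0.400 under 10 kb, 1.12 from 10 to 50 kb, 2.11 from 50 to 100 kb and 2.96 over 100 kb. The share of mitochondrial UMIs was 23.0% to 55.9% by type in these cells, and the part of RNA quality was not tested.

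**Figure D5:**
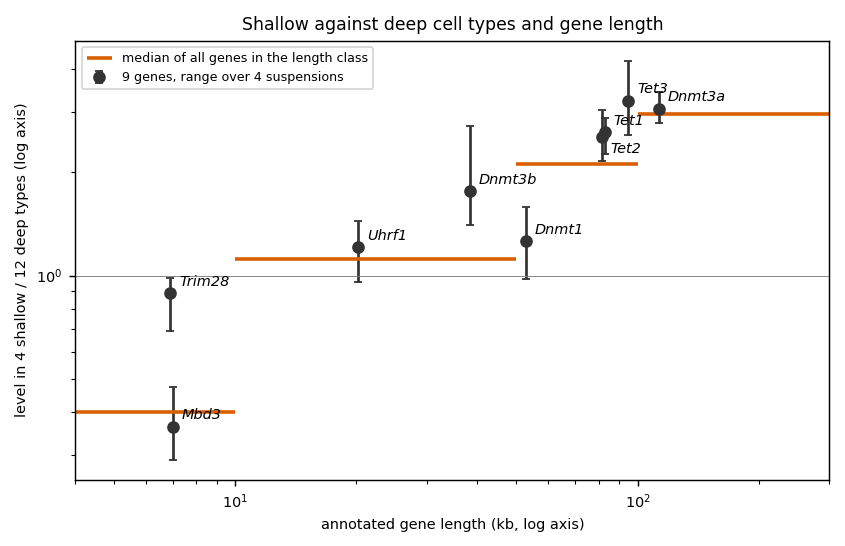
Ratio of the level in the 4 shallow to that in the 12 deep cell types (outside mitochondrial genes) against annotated gene length, both on log axes. Points are the 9 genes with the range over the 4 suspensions, and orange lines are the medians of all genes by length class. The 4 longest genes had ratios of 2.54 to 3.24, and the 2 shortest, Mbd3 (0.363) and Trim28 (0.887), the lowest.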

How the data were processed

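Single-cell 3′ gene expression (Chromium, CellPlex oligo labels) had been measured in 4 suspensions pooled into 1 droplet run. The authors deposited UMI counts from Cell Ranger (7.2.0 per the file headers) against GRCm38 with EGFP added, 1 filtered matrix per suspension, and a table from which cell type and suspension were taken. Doublets had been removed by the authors with DoubletFinder, and no caller was rerun. No correction for free RNA was made. The sources used here do not state whether introns were counted. No authors' comparisons were used. The raw matrix was not used.

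Suspensions, grouped from the series description as founders or F1, were the replicates, and p-values measure only the spread between them. Counts were summed per suspension and tested with edgeR 4.0.16 (TMM, quasi-likelihood, Benjamini-Hochberg over all genes, threshold 0.05, filterByExpr) in R 4.3.3, in each type with at least 20 cells of every suspension and over the deep types. Depth was 16052917 to 19160116 gene UMIs per suspension. Scripts were tested on simulated data. DESeq2 1.42.0, other size factors, other filters and leaving out each suspension were alternatives, and the sums without red blood cells and the replication classes were added after seeing the data. Python 3.11.15, numpy 2.4.6, scipy 1.17.1, pandas 2.3.3 and matplotlib 3.10.9 were used. The members and gene lists were chosen with earlier results of these data known. Named genes were the 9 members, the called genes of each list (the 5 largest where more) with the gene of highest level, and for each member the 3 genes of highest Pearson correlation among those with 500 or more UMIs. Gene positions, lengths and promoters came from RefSeq (GRCm38.p6) by symbol, with all 9 members matched and a length for 21224 genes (96.8% of 21924 outside mitochondrial genes).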

Additional observations from a re-analysis of the deposited data

Results flagged for a closer look

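For 6 of the genes, both founders exceeded both F1 suspensions in at least 1 deep cell type and lay below both in at least 1 other. Over all gene and type pairs, 21.5% had the first order and 19.1% the second, and of the 6405 genes tested in all 9 deep types, 57.9% had both orders, beside 5 of the 8 members tested in all 9. The difference between the cell types was not tested in any case, and no value passed the test within its own type. The values are log2 fold changes of founders minus F1. Dnmt1 was 0.35 in Neuroectoderm/Glia and -0.66 in Chondrocyte. Dnmt3b was 0.38 in Myoblast/Cardiomyocyte and -0.85 in Neuronal Progenitor. Tet1 was 0.24 in Myoblast/Cardiomyocyte and -0.18 in Chondrocyte. Tet2 was 0.72 in Epithelial Cell and -0.25 in Gut Mesenchyme/Amniotic Mesoderm. Tet3 was 0.24 in CNS Neuron and -0.16 in Chondrocyte. Mbd3 was 0.20 in CNS Neuron and -0.26 in Ependymal Cell. Uhrf1, Trim28 and Dnmt3a had no such pair among the 9 deep types.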

How the results depend on the processing

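The calls of Uhrf1 and Trim28 over the deep types summed were unchanged with other size factors, no count filter, DESeq2, cells under 5% mitochondrial, without mitochondrial genes and, added after seeing the data, without red blood cell types. Leaving out 1 suspension gave 1 to 2 called members, and the lone suspension left in a group was then assumed to vary like the other group. Within cell types, 0 pairs became 3 with no count filter, and 0 to 3 when 1 suspension was left out. Called pathway genes went from 22 to 13 with DESeq2 (over all genes, from 1294 to 1029) and to 3, 14, 2 and 10 without F0_8, F0_9, F1_1 and F1_mix. The equal-weight difference of Dnmt3b changed sign, from -0.08 to 0.048, without red blood cell types, on low counts. The cause of these shifts was not tested. The share of cells with a UMI was lower for all 9 genes at 5000 UMIs a cell, which limits it to a description of depth. Counts below about 30 UMIs per suspension, as for Dnmt3b, limit what a difference can show. No paired analysis was possible because the suspensions carry no shared replicate numbers.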
